A study of Homo sapiens with 12 samples.

Results

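Inflammatory chemokines and cytokines were followed in 2 human gastric cancer cell lines grown with and without cantharidin sodium. The set holds 10 genes given by symbol: the chemokine ligands CXCL1, CXCL2, CXCL3, CXCL5, CXCL8, CCL2 and CCL20, the cytokines IL6 and CSF1, and TNFAIP2, a gene named for its induction by tumour necrosis factor. All 10 had a row among the 32269 gene identifiers of the count table. All 10 also passed the filter on low counts, but CXCL5, CCL2, IL6 and CCL20 were close to 0 in AGS, and the first 3 of these passed only through MKN1. Cantharidin sodium is a salt derived from cantharidin, the toxin of blister beetles, and cantharidin is known as a blocker of protein phosphatases such as PP2A.

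The 4 groups were untreated AGS, treated AGS, untreated MKN1 and treated MKN1, with 3 libraries in each, which the series' design text calls biological replicates. AGS is labelled as gastric adenocarcinoma epithelium and MKN1 as gastric adenosquamous carcinoma. All groups carry the genotype label WT and grew in RPMI-1640 with fetal bovine serum and penicillin-streptomycin. Each group is 1 established line in culture. The labels state neither the dose nor how long the cells were treated. P-values measure the spread between these libraries.

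Chemokines are small secreted proteins that guide leukocytes along concentration gradients. CXCL1, CXCL2, CXCL3, CXCL5 and CXCL8 carry the ELR motif (glutamate, leucine, arginine) and draw neutrophils, mainly through the receptor CXCR2 and, for CXCL8, also through CXCR1. CCL2 draws monocytes through CCR2, CCL20 draws CCR6-bearing lymphocytes and dendritic cells, IL6 signals through gp130 and STAT3, and CSF1 sustains macrophages. Most of these genes are known targets of the transcription factor NF-kB, which TNF, IL1 and Helicobacter infection activate in gastric epithelium.

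The 5 ELR chemokine genes of the set lie in one cluster on chromosome 4, with other genes between some of them. On GRCh38, CXCL8 (ENSG00000169429, plus strand, 73740506 to 73743716), CXCL1 (ENSG00000163739, plus strand, 73869393 to 73871242), CXCL5 (ENSG00000163735, minus strand, 73995642 to 73998779), CXCL3 (ENSG00000163734, minus strand, 74036589 to 74038807) and CXCL2 (ENSG00000081041, minus strand, 74097035 to 74099293) span 358.8 kb. CCL20 (ENSG00000115009) lies on chromosome 2 at 227805739 to 227817564, IL6 (ENSG00000136244) on chromosome 7 at 22725884 to 22732002 and CCL2 (ENSG00000108691) on chromosome 17 at 34255218 to 34257203. CSF1 (ENSG00000184371) lies on chromosome 1 at 109910242 to 109930992 and TNFAIP2 (ENSG00000185215) on chromosome 14 at 103123442 to 103137439. These 5 genes are on the plus strand.

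The promoter stretches with an NF-kB match are shown because the genes of the set are known mainly as NF-kB targets. CXCL1, CXCL2 and CXCL3 carry nearly the same letters there, CXCL5 carries the same match in other surroundings, and CXCL8 a shorter one; no link between these letters and the changes below was tested. RefSeq (GRCh38.p14) held a promoter for 8 of the 10 genes, other than CCL2 and CSF1. Each line is 30 bases on the gene's own strand, 5′ to 3′, and capitals mark the match to the NF-kB 10-letter consensus on either strand or, in CXCL8, to GGAATTTCC. The windows are chr4:73869304-73869333 (plus strand) for CXCL1, chr4:74099254-74099283 (minus) for CXCL2, chr4:74038749-74038778 (minus) for CXCL3, chr4:73998749-73998778 (minus) for CXCL5, chr4:73740468-73740497 (plus) for CXCL8, chr2:227813753-227813782 (plus) for CCL20 and chr7:22727117-22727146 (plus) for IL6.
CXCL1: ctggaactccGGGAATTTCCCtggcccggg
CXCL2: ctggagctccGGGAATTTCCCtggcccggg
CXCL3: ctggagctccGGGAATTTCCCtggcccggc
CXCL5: catgagttcaGGGAATTTCCCcagcatccc
CXCL8: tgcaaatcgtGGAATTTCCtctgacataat
CCL20: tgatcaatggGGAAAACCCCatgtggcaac
IL6: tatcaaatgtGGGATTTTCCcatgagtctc

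In the 250 bases before the start, the NF-kB 10-letter consensus was found on either strand in 6 of the 8 promoters, against 9.96% of 35116 RefSeq promoters. The letters GGAATTTCC, which overlap that consensus, were found on either strand in 5 of 8, the ELR chemokines, against 0.413% of all promoters. In CXCL1, CXCL2, CXCL3 and CXCL5 they lie inside the consensus match already counted, and the promoters of close paralogs are alike. The counts are thus not independent, and nothing is read from their contrast with all promoters. TGANTCA, an AP-1 motif searched on both strands, was in the CXCL8 promoter only of the 8, ending 131 bases before the start, against 6.57% of promoters. TATAAA on the gene strand was in the CXCL8 and CCL20 promoters, against 6.80% of promoters. Over 250 bases, the CXCL1 promoter was 81.4% identical to that of CXCL3 and 70.1% to that of CXCL2, while CXCL8 was 43.9% to 47.9% identical to the other 4. A match describes letters in the window and is not a measured binding site.

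Libraries held 28604966 to 51604215 counts, so that 3 counts, the limit that a count of 0 allows, stood for 0.058 to 0.105 CPM. CPM are counts per 1000000 counts of the library, scaled by TMM factors, and RPKM are these CPM per kilobase of exon. Untreated MKN1 replicate 3 stood apart from its group: its log2 CPM correlated at 0.970 and 0.972 with the other 2 libraries, which correlated at 0.985 with each other. On the first principal component of MKN1 it lay at 6.73, near the treated libraries (16.3 to 48.2), while the other untreated libraries lay at -52.5 and -54.4. Whether it was treated or labelled as stated was not tested. It is used as labelled. The log2 change with treatment in MKN1 of each of the 10 genes, and of the related genes called, is also given without it. EPCAM, KRT8 and KRT18 were expressed in both lines, and the squamous genes KRT5, KRT6A and KRT14 averaged 487, 1282 and 537 CPM in MKN1 and under 0.3 CPM in AGS. Of the other squamous markers, KRT17 (19.6 CPM in AGS and 3768 CPM in MKN1), TP63 and DSG3 were also far higher in MKN1. SFN averaged 139 CPM in AGS and 233 CPM in MKN1, and S100A2 8.80 and 10.3 CPM, so the squamous markers were not uniform. Glandular markers were not uniform either: EPCAM averaged 434 CPM in AGS and 21.4 CPM in MKN1. The leukocyte gene PTPRC averaged 0.136 CPM in AGS and 0.0467 CPM in MKN1.

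In AGS cells the genes that passed the test were higher ones. CXCL1, CXCL2, CXCL3 and CSF1 were higher in treated cells, by 1.43-fold to 1.69-fold, and none of the 10 genes passed the test in the lower direction. These 4 calls stand against a background of 20.8% of all 20280 genes called in AGS, 9.21% higher and 11.6% lower. The median log2 change over the 6 genes expressed in AGS was 0.55, against -0.01 over all genes tested. In bulk RNA, a change in the share of expressing cells and a change in RNA per cell cannot be told apart.

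CXCL1, a neutrophil attractant, read 10.7, 10.9 and 9.76 CPM in untreated and 16.1, 16.0 and 20.5 CPM in treated AGS libraries. Every treated library lay above every untreated one. The log2 change was 0.75 (SE 0.16, adjusted p = 0.00646, edgeR quasi-likelihood test with Benjamini-Hochberg adjustment), a 1.68-fold increase that passed in 21 of 21 alternatives.

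CXCL2, a close paralog with the same receptor, read 12.8, 11.1 and 12.5 CPM in untreated and 19.6, 16.5 and 18.1 CPM in treated AGS libraries. Here too the groups did not overlap. The log2 change was 0.58 (SE 0.13, edgeR adjusted p = 0.00959), or 1.49-fold. CXCL3, the third of these paralogs, read 13.7, 11.0 and 11.9 CPM in untreated and 21.7, 17.6 and 22.7 CPM in treated libraries. All treated CXCL3 values were above all untreated ones, with a log2 change of 0.76 (SE 0.18, edgeR adjusted p = 0.0129), or 1.69-fold. The call was lost without untreated replicate 2 (0.0535), untreated replicate 3 (0.0535) or treated replicate 3 (0.0541), and ranged from 0.000678 to 0.0541 over the alternatives. The 3 paralogs share sequence: 4.81%, 12.5% and 6.01% of the 50-base words of CXCL1, CXCL2 and CXCL3 also occurred in another of them, so how the counting split such reads is uncertain.

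CSF1, the macrophage growth factor, read 29.01, 27.6 and 28.0 CPM in untreated and 43.3, 39.3 and 38.5 CPM in treated AGS libraries. The untreated libraries were within 2 CPM of each other and all lay below the treated ones. The log2 change was 0.52 (SE 0.13, edgeR adjusted p = 0.016), or 1.43-fold. The call was lost without untreated replicate 2, untreated replicate 3 or treated replicate 1 (adjusted p = 0.0548, 0.061 and 0.0644), within a range of 0.000306 to 0.0644 over the alternatives.

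CXCL8 (interleukin 8) did not follow its neighbours. It read 14.6, 18.2 and 16.3 CPM in untreated and 9.70, 13.2 and 11.9 CPM in treated AGS libraries, so that all treated values were the lower ones. With the spread shared over all 12 libraries, the log2 change of -0.49 (SE 0.32) did not pass the test (edgeR adjusted p = 0.298). With the 6 AGS libraries fitted alone it did (-0.50, adjusted p = 0.0114), and adjusted p ranged from 0.0114 to 0.525 over the alternatives. TNFAIP2, which encodes an exocyst-like protein of membrane protrusions, read 74.3, 72.2 and 69.1 CPM in untreated and 90.8, 93.0 and 88.7 CPM in treated AGS libraries. Its groups did not overlap either, but the log2 change of 0.34 (SE 0.14) did not pass (edgeR adjusted p = 0.103). It passed with AGS fitted alone (adjusted p = 0.000978) and without treated MKN1 replicate 3 (0.0164), within a range of 0.000978 to 0.253. Of the 6 expressed genes, 5 thus had all treated libraries above all untreated ones and 1 had them below, where 25.6% and 26.8% of all genes did so (52.4% in either direction).

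**Figure D1:**
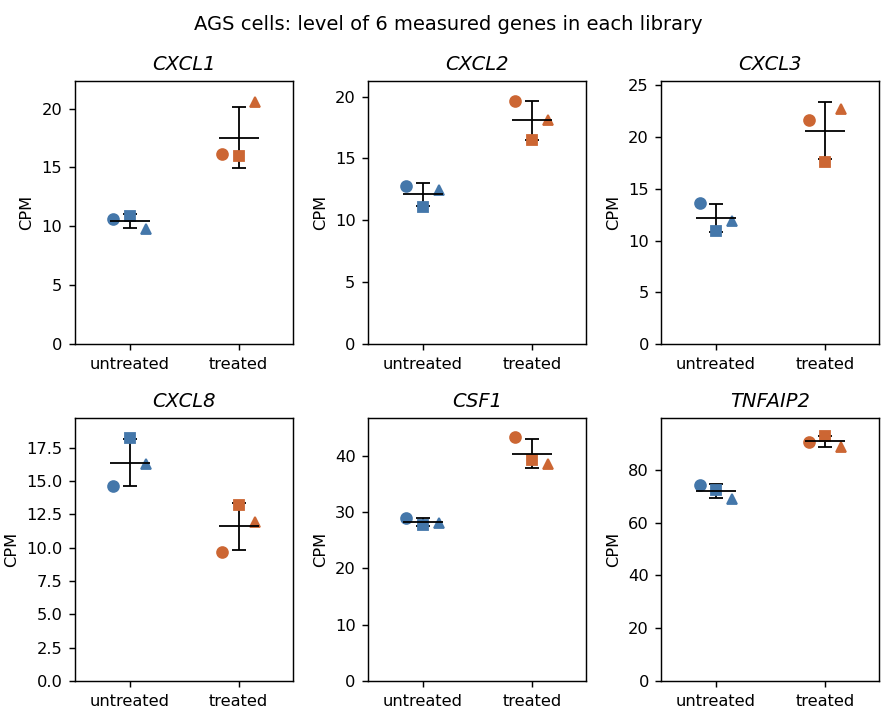
Level in CPM (vertical axis, from 0) of the 6 genes expressed in AGS in each of 3 untreated (blue) and 3 treated (orange) libraries; circles, squares and triangles are replicates 1, 2 and 3, and bars give mean ± SD. The treated libraries lie above the untreated ones for every gene shown except CXCL8, where they lie below.

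The remaining 4 genes were near 0 in AGS, taken as a mean under 0.5 CPM over its 6 libraries. CCL2 had 0, 0 and 2 counts in untreated and 0, 4 and 0 counts in treated AGS libraries. IL6 had 2, 0 and 2 counts in untreated and 9, 2 and 0 in treated libraries, and CXCL5 had 4, 3 and 2 in untreated and 0, 3 and 6 in treated libraries. CCL20 was a little higher, with 14, 5 and 16 counts in untreated and 6, 10 and 25 in treated libraries. These counts overlap between the groups and do not allow a change with treatment to be read in AGS. Between these 4 genes and the 6 expressed ones there was a wide gap: CCL20 averaged 0.328 CPM, and the lowest of the expressed genes, CXCL8 and CXCL1, averaged 13.99 CPM each.

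In MKN1 cells the genes that passed were lower ones. CCL2 and TNFAIP2 were lower in treated cells, by 6.34-fold and 2.07-fold, and none of the 10 genes passed in the higher direction. The 2 calls stand against a background of 6.70% of genes called in MKN1, 2.80% higher and 3.90% lower. With libraries scaled by their totals alone, 58.1% of the calls over all genes were higher in place of 41.8% (754 higher and 543 lower, against 567 and 791). The median log2 change over the 10 genes was -0.47, against 0.01 over all genes tested. Without untreated replicate 3, 4 of the 10 were lower, CCL20 and CSF1 being added, and the genes called over the whole table went from 1358 to 3160.

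CCL2, the monocyte attractant, read 51.6, 52.5 and 88.0 CPM in untreated and 9.35, 5.94 and 14.9 CPM in treated MKN1 libraries. The highest treated library was well below the lowest untreated one. The log2 change was -2.66 (SE 0.37, edgeR adjusted p = 0.00268), and 5 of 15353 genes with at least 1 CPM in MKN1 had a more negative change. Without untreated replicate 3, which held the highest value, the change was -2.37 (adjusted p = 0.00166), and CCL2 passed in 21 of 21 alternatives. CCL2 and IL6 are also products of fibroblasts: the summed level of 8 fibroblast markers was 95.7 to 149 CPM in untreated and 58.8 to 97.9 CPM in treated MKN1 libraries, with LUM the most abundant (mean 85.4 CPM), COL1A2, COL3A1 and THY1 under 0.5 CPM on average, and the part of this in the result was not tested.

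TNFAIP2 read 1295, 1443 and 1243 CPM in untreated and 703.7, 733 and 484 CPM in treated MKN1 libraries. It was the most abundant of the 10 genes in CPM in untreated cells, and its groups did not overlap. The log2 change was -1.05 (SE 0.14, edgeR adjusted p = 0.00226). It was -1.10 without untreated replicate 3 (adjusted p = 0.000987), and missed the threshold with the MKN1 libraries fitted alone (adjusted p = 0.0567, the highest over its alternatives).

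IL6, the activator of STAT3, read 342, 341 and 326 CPM in untreated MKN1 libraries and 136, 286 and 139 CPM in treated ones. The untreated libraries lay close together and above all treated ones, of which replicate 2 lay nearer to the untreated libraries than to the other treated ones. The log2 change of -0.85 (SE 0.29) did not pass (edgeR adjusted p = 0.103). It passed without treated replicate 2 (-1.29, adjusted p = 0.0222) and with limma voom (0.0293), within a range of 0.0222 to 0.351, and was -0.87 without untreated replicate 3 (adjusted p = 0.0734). On the genome, 20.7% of the exon bases of IL6 are shared with the minus-strand genes AC073072.1 and STEAP1B, and the library kit does not mark strand, so reads there cannot be told apart.

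CXCL5, the fifth ELR chemokine and a ligand of CXCR2, read 46.4, 41.5 and 59.0 CPM in untreated and 34.4, 28.4 and 32.4 CPM in treated MKN1 libraries. All treated values were the lower ones, and the log2 change of -0.63 (SE 0.22) did not pass (edgeR adjusted p = 0.101). It passed with DESeq2 (adjusted p = 0.0116) and limma voom (0.0355), within a range of 0.0116 to 0.246, and was -0.47 without untreated replicate 3 (adjusted p = 0.147).

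CCL20, a ligand of CCR6, depended on 1 library. It read 13.8, 9.63 and 0.736 CPM in untreated and 2.31, 4.20 and 1.54 CPM in treated MKN1 libraries. The lowest of all 6 values was that of untreated replicate 3, so the groups overlapped, and the log2 change of -1.59 (SE 0.73) did not pass (edgeR adjusted p = 0.213). Without that library the change was -2.13 and passed (adjusted p = 0.0093, the lowest over its alternatives, which reached 0.579). CSF1 read 300.2, 318 and 237 CPM in untreated and 195, 258 and 237 CPM in treated libraries, with untreated replicate 3 again inside the treated range. Its log2 change of -0.31 (SE 0.13, edgeR adjusted p = 0.169) became -0.43 without that library (adjusted p = 0.0279, against up to 0.423 over the alternatives).

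CXCL1, CXCL2, CXCL3 and CXCL8 did not pass in MKN1. CXCL8 varied most between replicates, at 531, 433 and 220 CPM untreated and 284, 609 and 305 CPM treated, a log2 change of 0.02 (SE 0.31, edgeR adjusted p = 0.985). Its sign turned to -0.28 without untreated replicate 3 (edgeR adjusted p = 0.529) and to -0.43 without treated replicate 2 (adjusted p = 0.438). CXCL1 read 157, 158 and 165 CPM in untreated and 157, 209.8 and 135 CPM in treated libraries, a log2 change of 0.06 (SE 0.15, edgeR adjusted p = 0.842), or -0.13 without treated replicate 2 and 0.09 without untreated replicate 3 (adjusted p = 0.769). CXCL2 read 41.5, 46.7 and 52.1 CPM untreated and 54.6, 66.1 and 52.7 CPM treated. These CXCL2 groups touched without overlap, and the log2 change of 0.30 (SE 0.13) had an edgeR adjusted p of 0.174. Without untreated replicate 3 the CXCL2 change was 0.39 (edgeR adjusted p = 0.0648). CXCL3 read 8.87, 10.7 and 12.1 CPM untreated and 7.23, 10.8 and 8.23 CPM treated, a log2 change of -0.27 (SE 0.19, edgeR adjusted p = 0.413), or -0.16 without untreated replicate 3 (adjusted p = 0.614). Over the 10 genes, 4 had all treated libraries below all untreated ones (CXCL5, CCL2, IL6 and TNFAIP2) and 1 (CXCL2) had them above, where 11.4% and 9.95% of all genes did so (21.4% in either direction).

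**Figure D2:**
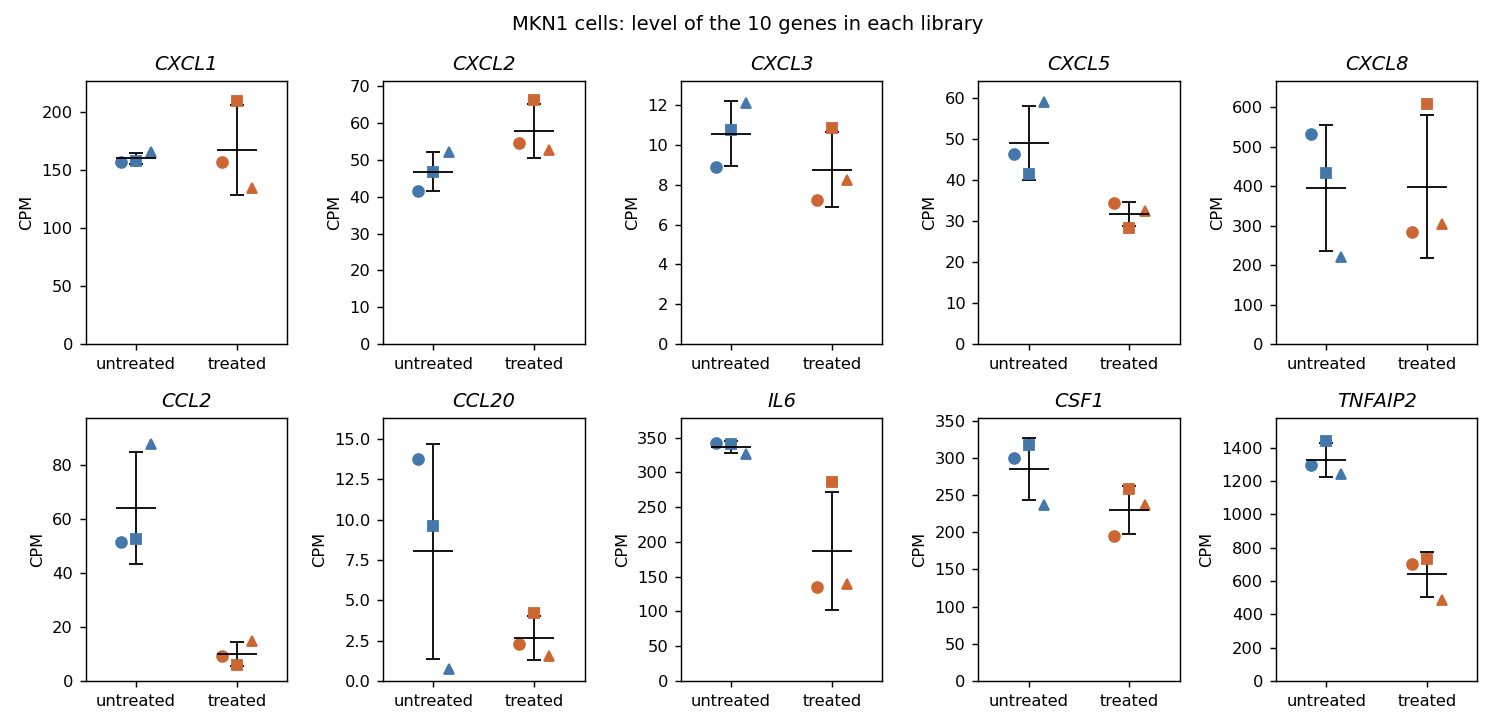
Level in CPM (vertical axis, from 0) of the 10 genes in each of 3 untreated (blue) and 3 treated (orange) MKN1 libraries; circles, squares and triangles are replicates 1, 2 and 3, and bars give mean ± SD. CCL2 and TNFAIP2 are lower in all treated libraries, and untreated replicate 3 lies at 0.736 CPM for CCL20 and 220 CPM for CXCL8, away from its group.

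The difference between the treatment effects of the 2 lines, MKN1 minus AGS, passed for 4 of the 10 genes, against 15.7% of all genes (8.38% higher and 7.30% lower). In each the change was more negative in MKN1. It was -1.39 for TNFAIP2 (SE 0.20, edgeR adjusted p = 0.000924), -0.83 for CSF1 (SE 0.18, adjusted p = 0.00982) and -1.03 for CXCL3 (SE 0.26, adjusted p = 0.0192). For CXCL1 it was -0.68 (SE 0.22, edgeR adjusted p = 0.049), just inside the threshold, and it passed in 3 of 20 alternatives, with adjusted p from 0.00704 to 0.127. Without untreated MKN1 replicate 3 the CXCL1 difference was -0.66 and did not pass (edgeR adjusted p = 0.0543). The CXCL3 difference had an adjusted p of 0.0515 without untreated AGS replicate 2 and of 0.0526 without treated AGS replicate 3. CSF1 and TNFAIP2 passed in 20 of 20 alternatives.

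For CXCL2 the difference was -0.27 (SE 0.18, edgeR adjusted p = 0.337) and for CXCL8 0.51 (SE 0.45, adjusted p = 0.472), so a difference between the lines was not shown for either. For CXCL5, CCL2, IL6 and CCL20 the AGS side rests on a few counts, and the fitted differences are not given as sizes. Their edgeR adjusted p lay between 0.209 (CCL2) and 0.481 (CXCL5). CCL2 passed with DESeq2 (adjusted p = 0.0431) and CCL20 without untreated MKN1 replicate 3 (adjusted p = 0.0271).

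**Figure D3:**
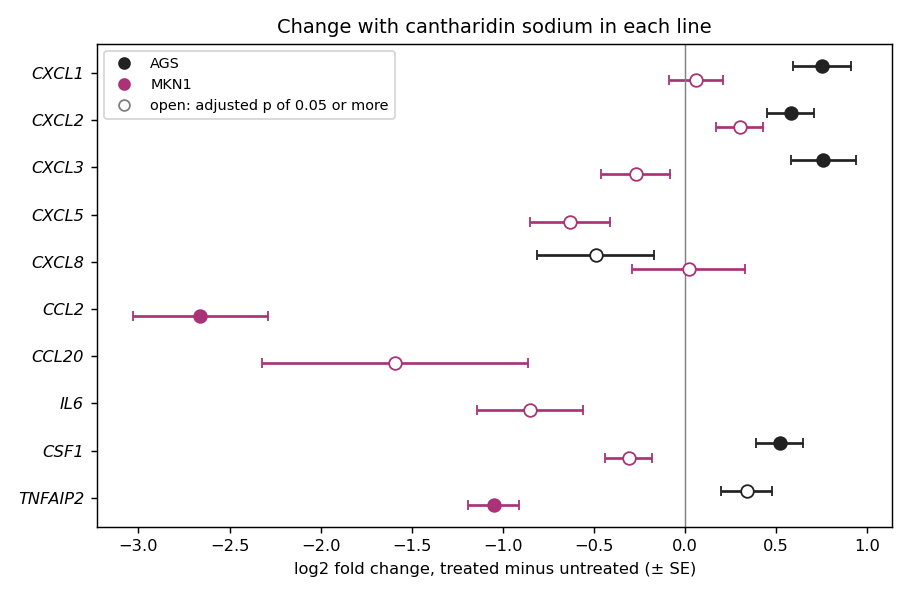
Log2 fold change, treated minus untreated, with SE (horizontal axis) for the genes in AGS (black) and MKN1 (purple); filled points have an adjusted p below 0.05, and the 4 genes near 0 in AGS have no AGS point. CXCL1, CXCL2, CXCL3 and CSF1 are filled to the right of 0 in AGS, and CCL2 and TNFAIP2 are filled to the left in MKN1.

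Between the lines, without treatment, 5 of the 6 genes expressed in both were higher in MKN1, as were the 4 near 0 in AGS, 3 of which could pass the filter only by being high in MKN1. Over all genes 34.9% were higher, 31.4% were lower and 66.3% differed, and nothing is read from the count of the 10 against these shares. TNFAIP2 was 18.5-fold higher (log2 4.21, SE 0.16, edgeR adjusted p = 1.43e-10), CXCL8 24.1-fold (log2 4.59, SE 0.36) and CXCL1 15.3-fold (log2 3.94, SE 0.17). CSF1 was 10.1-fold higher (log2 3.34, SE 0.14) and CXCL2 3.87-fold (log2 1.95, SE 0.13). CXCL3 alone of the 10 did not pass, at -0.20 (SE 0.19, edgeR adjusted p = 0.348), with 12.2 ± 1.36 CPM in AGS and 10.6 ± 1.63 CPM in MKN1 (SD, n = 3). In treated cells all 6 genes expressed in both lines passed, 5 higher and 1 lower in MKN1, and the other 4 were higher (68.1% of all genes differed, 36.8% higher and 31.4% lower). CXCL3 was then lower in MKN1 by log2 -1.24 (SE 0.19, edgeR adjusted p = 5.93e-05), with 20.6 ± 2.72 CPM in AGS and 8.76 ± 1.86 CPM in MKN1 (SD, n = 3). The libraries of the 2 lines did not overlap for the 9 genes higher in MKN1 without treatment (36.8% of all genes higher and 34.6% lower without overlap, 71.4% in all), nor for any of the 10 with treatment (38.9% higher and 35.1% lower, 74.0% in all). CCL20 in treated cells had an adjusted p of 0.0103 with edgeR and 0.0904 with limma voom.

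The 4 genes near 0 in AGS differed from MKN1 by ratios that counting error bounds loosely. For IL6, 30047 counts in untreated MKN1 faced 4 in untreated AGS, a ratio of 10473 after scaling (95% counting interval 4090 to 38440). For CCL2, 5828 counts faced 2, a ratio of 4063 (1124 to 33555). CXCL5 had a ratio of 686 (361 to 1500.4) and CCL20 one of 27.6 (19.7 to 39.96). In treated cells the ratios were 1774 for IL6 (991 to 3554), 281 for CCL2 (109 to 1032), 379.98 for CXCL5 (199.9 to 832) and 6.76 for CCL20 (4.85 to 9.64). These exact intervals cover counting error only.

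Exon length joined all annotated transcripts of a gene. For CXCL3 (2219 bases) and CCL2 (1986 bases) it formed 1 block over the whole gene, so any introns were counted as exon. Their RPKM may thus be too low, and their places in the order below depend on this length. Per length of exon, TNFAIP2 led in both untreated lines, at 14.3 ± 0.517 RPKM in AGS and 264 ± 20.7 RPKM in MKN1 (SD, n = 3). In untreated AGS, CXCL2 (8.06 RPKM), CXCL1 (8.06) and CXCL8 (7.20 RPKM) followed with overlapping ranges, then CXCL3 (5.48 RPKM) and CSF1 (5.21 RPKM), which overlapped each other. In untreated MKN1, CXCL8 had a mean of 174 RPKM but ranged from 96.9 to 234 RPKM, which spans both IL6 (163 RPKM) and CXCL1 (123 RPKM). Below these came CSF1 (52.6 RPKM), CCL2 (32.2 RPKM), CXCL2 (31.2 RPKM), CXCL5 (19.3 RPKM), CCL20 (5.05 RPKM) and CXCL3 (4.76 RPKM). CCL2 overlapped both CSF1 and CXCL2, while CSF1 and CXCL2 did not overlap each other, and CCL20 overlapped CXCL3. The order moved with treatment. In treated AGS, CXCL8 (5.10 RPKM) came last of the 6 expressed genes, below CSF1 (7.45 RPKM) without overlap. In treated MKN1, CXCL8 (175 RPKM), CXCL1 (129 RPKM), TNFAIP2 (127 RPKM) and IL6 (90.3 RPKM) overlapped from each to the next, and CCL2 (5.07 RPKM) had dropped from the sixth place to the eighth.

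**Figure D4:**
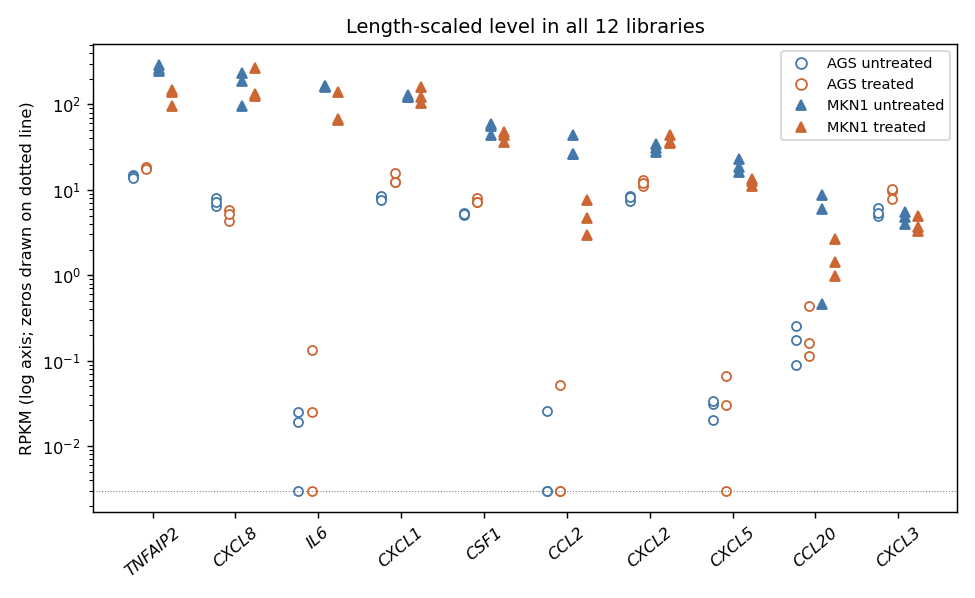
RPKM on a log axis in each of the 12 libraries for the 10 genes, AGS as open circles and MKN1 as filled triangles, untreated in blue and treated in orange; values of 0 are drawn on the dotted line. MKN1 lies above AGS for every gene except CXCL3, where the lines overlap in untreated cells and AGS is higher in treated cells.

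Among the 5 ELR chemokines of the set, the share held by each member was also computed. These shares were computed after the values of the single genes had been seen. CXCL8 held 21.9%, 27.8% and 25.2% of their summed RPKM in untreated AGS libraries and 10.8%, 15.7% and 12.0% in treated ones. The treated shares were all lower, with a mean difference of -12.2 percentage points (two-sided exact permutation p = 0.1, the smallest that 3 against 3 can give). CXCL8 was lower, and CXCL1, CXCL2 and CXCL3 higher, in every treated AGS library. The single genes thus fixed this p-value, and it adds no support to them. The summed level was 28.8 ± 0.496 RPKM in untreated and 40.01 ± 3.19 RPKM in treated AGS (SD, n = 3, exact permutation p = 0.1). In MKN1, CXCL8 held 47.9 ± 12.6% untreated and 47.5 ± 6.58% treated, and the summed level was 352 ± 59.3 and 359.5 ± 113 RPKM (SD, n = 3, exact permutation p = 0.8 for the sum). CXCL3, 19.0% of the sum in untreated AGS, was 1.40% of it in untreated MKN1. The exon length used for CXCL3 covered its whole gene, so its share may be too low and the other shares too high. The sizes of all these shares and sums depend on the exon lengths used.

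Of 106 related genes tested in 7 lists, 18 (17.0%) were called in AGS and 4 (3.8%) in MKN1, against 20.8% and 6.70% of all genes. Of 12 other CXC and CX3C ligands, 7 were tested, and in AGS 2 were higher, none lower, with none called in MKN1. The membrane-bound CX3CL1, a ligand of CX3CR1, read 0.158, 0.171 and 0.282 CPM in untreated and 1.70, 2.22 and 2.15 CPM in treated AGS libraries. All treated libraries were above all untreated ones (log2 3.31, SE 0.71, edgeR adjusted p = 0.00734), at levels that stayed low. CXCL9, named after its values were seen, was the other (log2 1.21, SE 0.36, edgeR adjusted p = 0.0326), while CXCL10, an interferon-induced ligand of CXCR3 also named after its values were seen, read 2.48 ± 0.509 and 4.45 ± 0.733 CPM (SD, n = 3, edgeR adjusted p = 0.272). Of 16 other CC ligands, 6 were tested, and CCL22, which attracts regulatory T cells through CCR4, was the only one called: 0.394, 0.514 and 0.436 CPM in untreated and 2.13, 5.52 and 4.70 CPM in treated AGS libraries (log2 3.20, SE 0.57, edgeR adjusted p = 0.00279). None of the CC list was called in MKN1. CX3CL1, CXCL9 and CCL22 were under 1 CPM in untreated AGS and reached a mean of 1 CPM over the line through the treated libraries.

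Of 24 other cytokines, 22 were tested, with 3 higher and 2 lower in AGS and none called in MKN1. IL11, a relative of IL6 that also signals through gp130, was the clearest: 3.96, 4.26 and 4.03 CPM in untreated and 0.852, 1.26 and 1.34 CPM in treated AGS libraries (log2 -1.81, SE 0.39, edgeR adjusted p = 0.00737). The treated libraries were all far below the untreated ones. IL32 was the other lower gene (log2 -0.56, edgeR adjusted p = 0.039), and IL24, IL12A and IL7 were the higher ones, each with a mean of about 1 CPM or less in both AGS groups; these 4 were named after their values were seen. TNF itself, given for its place upstream of NF-kB, averaged 7.15 ± 0.616 and 9.51 ± 3.47 CPM in untreated and treated MKN1 and under 0.05 CPM in AGS (SD, n = 3).

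Of 25 receptors, 19 were tested. In AGS 2 were lower: IL17RA, the shared IL17 receptor chain, at 37.3 ± 1.54 against 27.7 ± 1.21 CPM (SD, n = 3; log2 -0.43, edgeR adjusted p = 0.045), and ACKR3, named after its values were seen, which averaged under 0.1 CPM in both groups. In MKN1 IL17RC, its partner chain, was lower, at 15.04 ± 1.92 against 10.0 ± 1.13 CPM (SD, n = 3; log2 -0.59, edgeR adjusted p = 0.041, and -0.51 without untreated replicate 3, adjusted p = 0.0469).

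All 22 genes of the NF-kB pathway list were tested, with 3 higher and 1 lower in AGS and 1 lower in MKN1. IKBKB, the kinase that releases NF-kB from its inhibitors, read 27.0, 28.9 and 27.4 CPM in untreated and 44.0, 39.9 and 42.7 CPM in treated AGS libraries (log2 0.60, SE 0.13, edgeR adjusted p = 0.00756). NFKBIB, one of those inhibitors, read 37.7, 36.9 and 38.9 CPM untreated and 26.4, 23.9 and 25.5 CPM treated (log2 -0.58, SE 0.12, edgeR adjusted p = 0.0072). Neither pair of groups overlapped. BCL3, a nuclear partner of NF-kB subunits, had a log2 change of 0.37 in AGS (SE 0.12, edgeR adjusted p = 0.0409) and of -0.62 in MKN1 (SE 0.12, adjusted p = 0.0108). The BCL3 call in AGS was lost without any 1 of the 6 AGS libraries (adjusted p = 0.0556 to 0.16) or without untreated MKN1 replicate 2 (0.0551). In MKN1 it was lost with that line fitted alone (adjusted p = 0.106) and without untreated replicate 2 (0.0571), and was -0.66 without untreated replicate 3 (0.00406). BIRC3, named after its values were seen, was the third higher gene in AGS (log2 0.73, edgeR adjusted p = 0.0188), whereas NFKBIA and TNFAIP3, inhibitors that NF-kB itself induces and given for that reason after their values were seen, read 34.3 ± 1.77 and 8.26 ± 0.36 CPM untreated and 35.3 ± 1.74 and 9.26 ± 0.772 CPM treated in AGS (SD, n = 3), with edgeR adjusted p of 0.814 and 0.518. RELA, an NF-kB subunit chosen in the same way, did not pass in AGS (log2 -0.30, edgeR adjusted p = 0.0858).

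Of 18 further genes known to be induced by TNF or IL1, 14 were tested, with 1 higher and 1 lower in AGS and 2 lower in MKN1. LCN2, an iron-trapping secreted protein, read 2.12 ± 0.338 CPM untreated and 4.18 ± 0.74 CPM treated in AGS (SD, n = 3; log2 0.97, edgeR adjusted p = 0.0178), and NINJ1, a membrane rupture protein, 20.3 ± 1.94 and 14.3 ± 1.73 CPM (SD, n = 3; log2 -0.50, edgeR adjusted p = 0.0499). In MKN1 the acute phase gene SAA2 read 82.6, 85.6 and 85.6 CPM in untreated and 26.4, 24.7 and 19.8 CPM in treated libraries (log2 -1.84, SE 0.19, edgeR adjusted p = 0.000605, and -1.84 without untreated replicate 3, adjusted p = 0.000263). Its near-identical paralog SAA1, named after its values were seen, was lower too (log2 -1.02, SE 0.27, edgeR adjusted p = 0.0424, and -0.84 without untreated replicate 3, adjusted p = 0.046), and reads may be split between them. The SAA1 call was lost in 10 of 21 alternatives, among them MKN1 fitted alone (edgeR adjusted p = 0.11) and without treated replicate 2 (0.131). Among 16 binders and decay factors of AU-rich mRNA, a class that governs the stability of many cytokine transcripts, all were tested, 2 were lower in AGS and none was called in MKN1. KHSRP, which speeds decay of such transcripts, read 255, 238 and 257 CPM untreated and 181, 159.7 and 177 CPM treated (log2 -0.54, SE 0.11, edgeR adjusted p = 0.00489). ELAVL1, which stabilises them and was named after its values were seen, had a log2 change of -0.50 (edgeR adjusted p = 0.0169).

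Among genes whose mean over the line reached 1 CPM, the 4 lists with 10 or more such genes in both lines (receptors, NF-kB pathway, TNF and IL1 induced genes, AU-rich binders) had median log2 changes between -0.04 and 0.32 in AGS and between -0.32 and 0.08 in MKN1. Other cytokines had medians of -0.15 and 0.15. Over all genes at that level the medians were 0.00 in AGS and -0.01 in MKN1, with 11.5% higher and 13.1% lower in AGS and 3.03% higher and 4.94% lower in MKN1. The CXC and CC lists held at most 5 such genes per line, and in AGS 3 of them reached that level through the treated libraries, so nothing is read from their medians.

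**Figure D5:**
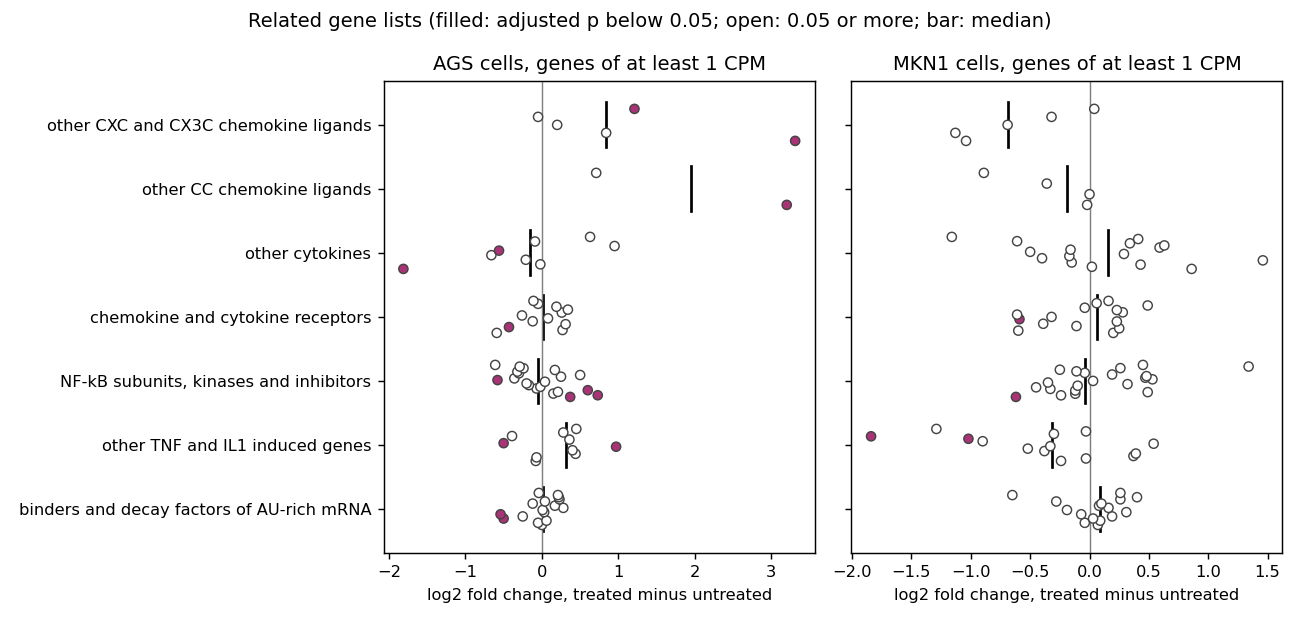
Log2 fold change, treated minus untreated (horizontal axes), of the genes with at least 1 CPM in the line, for the 7 related lists in AGS and MKN1; filled points have an adjusted p below 0.05, open points 0.05 or more, and bars are list medians. Filled points are few in each list, with CX3CL1 (3.31) and CCL22 (3.20) farthest to the right in AGS and SAA2 (-1.84) farthest to the left among those filled in MKN1.

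Of the 5 leukocyte markers tested, CD68 alone passed. CD68, also present in lysosomes of other cells, averaged 1.60 CPM in AGS and 32.8 CPM in MKN1, with a log2 change of 0.86 in AGS (edgeR adjusted p = 0.0349) and -0.80 in MKN1 (adjusted p = 0.0478). The others had log2 changes of -0.94 (CD14), 0.04 (LYZ), 0.27 (CSF1R) and -0.78 (ITGAM) in AGS and of -0.65, 1.58, -0.11 and 0.88 in MKN1, with edgeR adjusted p from 0.25 to 0.93. Of the 9 leukocyte markers 8 were measured. Their sum was 1056 to 1584 CPM in untreated and 1033 to 1465 CPM in treated AGS, nearly all of it LYZ (mean 1276 CPM), which gastric epithelium also makes. It was 43.1 to 59.3 CPM in untreated and 24.6 to 38.7 CPM in treated MKN1. PTPRC, MS4A1 and CD79A, which define blood cells, averaged under 0.3 CPM in both lines, and 5 measured endothelial markers summed to at most 4.54 CPM. The part of CD68 in the results was not tested.

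The genes whose pattern was most like that of CXCL1 over the 12 libraries, by Pearson correlation of log2 (CPM + 0.1) centred in each line among 10260 genes, were PARD6B (0.978), ACAD11 (0.945) and SEPSECS (0.945). For CCL20 they were BRIX1 (0.956), FAM133B (0.940) and LIN7C (0.937), among 15353 genes chosen by their level in MKN1 alone. CCL20 held 5 to 25 counts in the AGS libraries, so the AGS part of that likeness rests on few counts. In MKN1, untreated replicate 3 read 0.736 CPM of CCL20 against 13.8 and 9.63 CPM in replicates 1 and 2. The MKN1 part of that likeness may thus rest largely on this library, and a likeness without it is not given. These are descriptions over libraries that share treatment and depth. PARD6B rose in AGS by log2 0.75 (edgeR adjusted p = 0.00446), as CXCL1 did, whereas the 3 genes nearest to CCL20 passed in neither line.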

How the data were processed

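The authors deposited raw counts per gene for 12 libraries. Per the labels' protocols, TRIzol was used for extraction and the NEBNext Ultra kit, which does not mark strand, for the libraries. The aligner was HISAT2 2.0.4 and the genome hg38 (GRCh38), per the submitters' processing notes. The counter and its annotation were not given in the sources used here. Positions and exon lengths came from GENCODE 29.

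Counts were fitted together in edgeR 4.0.16 (R 4.3.3) after filterByExpr (20280 genes) with TMM scaling. Quasi-likelihood tests gave the change in each line, the difference of changes and the difference between lines, with Benjamini-Hochberg adjustment over all genes and a threshold of 0.05. The steps were tested on simulated data for the AGS comparison alone. These were drawn around the untreated AGS means with the same spread for all genes, so they do not cover the MKN1 comparisons or the differences between lines. Alternatives were other scalings, DESeq2 1.42.0, limma voom 3.58.1, 2 other filters, a replicate block, fits of only the 2 groups compared, and each of the 12 libraries left out. From each of the 7 related lists, the gene with the smallest adjusted p per direction and line, at 1 CPM or more, was named. The 10 genes, the lists and the tests were chosen with earlier results of these data known. Motifs were searched in RefSeq promoters. The genes most like CXCL1 and CCL20 in pattern were named by correlation over the libraries, and those for CXCL8 are not reported here.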

Additional observations from a re-analysis of the deposited data

Results flagged for a closer look

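For 4 of the 10 genes and 9 named genes of the related lists, the treatment effects in the 2 lines differed by the test of the difference itself (edgeR, MKN1 minus AGS, adjusted over all genes). Among the 10 genes these were CXCL1 (-0.68 on the log2 scale, edgeR adjusted p = 0.049), CXCL3 (-1.03, adjusted p = 0.0192), CSF1 (-0.83, adjusted p = 0.00982) and TNFAIP2 (-1.39, adjusted p = 0.000924). Over all genes 15.7% had such a difference called, and 14 of the 106 related genes tested did. The named genes of the lists were chosen by their treatment tests in these data, so nothing is read from their number. TNFAIP2 was higher in 3 of 3 treated AGS libraries and lower in 3 of 3 treated MKN1 libraries than in any untreated library of the same line.

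Among the other ligands and cytokines, the difference was -4.36 for CX3CL1 (edgeR adjusted p = 0.00528), -4.00 for CCL22 (adjusted p = 0.0092) and 2.68 for IL11 (adjusted p = 0.00487). CX3CL1 averaged 0.204 CPM in untreated AGS, and CCL22 averaged 0.464 CPM in untreated and 0.27 CPM in treated MKN1. The sizes for CX3CL1 and CCL22 thus rest on few counts. IL11 read 4.08 ± 0.155 CPM untreated and 1.15 ± 0.264 CPM treated in AGS, and 19.6 ± 9.73 and 35.7 ± 10.4 CPM in MKN1 (SD, n = 3). The IL11 change within MKN1 did not pass (log2 0.86, edgeR adjusted p = 0.144). Untreated MKN1 replicate 3 read 8.40 CPM, against 25.6 and 24.9 CPM in replicates 1 and 2, and treated replicate 1 read 24.7 CPM. For the receptor chains IL17RA and IL17RC the difference between the lines was 0.66 (edgeR adjusted p = 0.0399) and -0.89 (adjusted p = 0.0156). For the NF-kB pathway genes IKBKB, NFKBIB and BCL3 it was -0.72 (adjusted p = 0.0199), 0.61 (adjusted p = 0.0338) and -0.98 (adjusted p = 0.00225), and for LCN2 it was -1.49 (adjusted p = 0.00945). Of the 14 such differences called over the related lists, 5 passed under every alternative that gave a value. The call was lost in 10 of 20 alternatives for IL17RA (including the replicate block, adjusted p = 0.0529) and for NFKBIB (adjusted p up to 0.0897), both of them without any 1 of the 6 AGS libraries and without untreated MKN1 replicate 1 or 2, and NFKBIB also without treated MKN1 replicate 3. It was also lost for IKBKB without untreated AGS replicate 1 (0.0543) or treated AGS replicate 1 (0.0529), and for CX3CL1 with limma voom (0.0547). The CXCL1 difference passed in 3 of 20.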

How the results depend on the processing

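All 5 comparisons were refitted under 21 alternatives (20 for the difference of effects). The number of genes called in AGS, 4214, became 8368 with only the 2 groups fitted. In MKN1, 1358 became 2459 with DESeq2, 809 without a filter and 34 with only the 2 groups, where 1 of the 10 genes was called. With limma voom 4 of the 10 were called in MKN1. The number over all genes is not given for that fit, so nothing is read from this count. Leaving out single libraries gave 2051 to 5533 genes and 2 to 5 of the 10 in AGS, 336 to 3160 genes and 2 to 4 in MKN1, 2098 to 4643 and 2 to 4 for the difference, 12432 to 13875 and 9 between untreated lines, and 12964 to 14741 and 10 between treated lines. Signs turned for CXCL5 in AGS with voom (-0.36). They also turned with 1 library left out, where log2 changes ranged from -0.74 to 0.72 for CXCL5, -0.23 to 2.15 for IL6, -2.46 to 3.51 for CCL2 and -0.32 to 0.80 for CCL20 in AGS, from -0.43 to 0.29 for CXCL8 (-0.28 without untreated replicate 3) and -0.13 to 0.20 for CXCL1 in MKN1, and from -1.35 to 0.11 for the CXCL5 difference; the AGS cases rest on a few counts, and the cause of the others was not tested.

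No pairing by replicate number was clear. Same-numbered deviations correlated at -0.04 to 0.02 in AGS and -0.04 to 0.18 in MKN1. Different-numbered ones correlated at -0.07 to 0.05 in AGS and -0.18 to 0.12 in MKN1, where the pair of replicates 3 was the highest of all. With 3 libraries in each group, these values cannot exclude a pairing. With the replicate number as a block, 4087 genes were called in AGS and 1207 in MKN1 and the same 4 and 2 of the 10 passed, while the CXCL1 difference did not (-0.70, adjusted p = 0.0615) and CXCL3 differed between untreated lines (-0.58, adjusted p = 0.0489). The median log2 difference of all genes between the lines lay between 0.038 and 0.175 over the 4 scalings. CCL20 had no value under the 5 CPM filter, nor CXCL5, CCL2 and IL6 with AGS fitted alone. Of 22 calls of related genes, 5 (CCL22, IKBKB, NFKBIB and KHSRP in AGS, SAA2 in MKN1) passed under every alternative that gave a value, and none turned sign. IL17RA, NINJ1 and IL17RC lost their call in 12, 12 and 14 of 21, SAA1 in 10 of 21 and IL7 in 12 of 20. The change in the CXCL8 share of the ELR sum in AGS was -13.7 to -10.7 points with 1 library left out, an alternative chosen after seeing the data. Depth limits the 4 genes near 0 in AGS.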
